A study of Mus musculus with 12 samples.

Results

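Interferon-stimulated genes are the genes that cells switch on after an interferon signal, and 39 of them, listed by symbol, were followed through the cortex of wild-type and progranulin-deficient mice. All 39 were found among the 27179 genes of the count table, and 31 had enough counts to be among the 15298 genes tested. The list is fixed by gene symbol. RNA of mouse cortex was sequenced in 12 libraries, in 3 groups of 4. Wild-type animals (WT) carried intact mouse Grn (Grn+/+), which encodes progranulin, a secreted protein that is delivered to lysosomes, and were 287, 375, 375 and 375 days old in replicates 1 to 4. Knockout animals (KO) lacked mouse Grn (Grn-/-) and were 308, 282, 282 and 282 days old. Humanized mutant animals (MUT) lacked mouse Grn and carried the human allele named GRNmEx5 (Grn-/-; GRNmEx5), and were 287, 272, 309 and 282 days old. MUT and KO thus share the loss of mouse Grn, and the labels do not say how the lines were bred.

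Type I interferons bind a receptor made of Ifnar1 and Ifnar2, and the kinases Jak1 and Tyk2 then pass the signal on. Stat2 and Irf9 belong to the complex that binds the interferon-stimulated response element in promoters, while interferon gamma acts through a different element, the gamma-activated site. In brain, microglia, astrocytes, endothelium and neurons can all respond, and the induced proteins bind viral RNA, block virus entry, tag proteins with ISG15 or, as Irf7, feed the response forward.

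Because these members are defined by a shared response, their promoters were read for the letters of both elements. RefSeq promoter windows (GRCm38.p6, 250 bases before to 50 after a gene's start) were matched for 29 of the 39 members by gene identifier. Ifi204, Ifi27, Ifi27l2a, Mx1, Mx2, Oas2, Parp14, Rtp4, Usp18 and Zbp1 were not matched. The core letters of the interferon-stimulated response element, GAAA and GAAA with 2 bases of any kind between them, searched on both strands, were in a window of 19 of the 29 members (65.5%) and of 1079 of all 27025 genes with a window (3.99%). The gamma-activated site, TTCNNNGAA, which reads the same on both strands, was in 6 of 29 members (20.7%) and in 9.55% of all genes. A match is a description of letters and not a bound site. The matched members without the response element letters were Ifi44, Ifit2, Irf7, Irf9, Isg20, Oasl1, Oasl2, Sp100, Trim25 and Xaf1. The 5 windows below were all picked from members with these letters. Capitals mark these letters or, where the match is on the other strand, TTTC and TTTC with 2 bases between them, and overlapping matches are capitalised as a single run.
Ifit3, chr19:34583279-34583578, plus strand: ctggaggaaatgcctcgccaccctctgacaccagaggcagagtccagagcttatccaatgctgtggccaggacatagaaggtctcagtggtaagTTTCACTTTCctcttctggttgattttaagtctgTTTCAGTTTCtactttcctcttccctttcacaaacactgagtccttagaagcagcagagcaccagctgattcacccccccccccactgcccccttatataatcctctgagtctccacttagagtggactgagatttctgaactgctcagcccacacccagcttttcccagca
Ifit1, chr19:34640639-34640938, plus strand: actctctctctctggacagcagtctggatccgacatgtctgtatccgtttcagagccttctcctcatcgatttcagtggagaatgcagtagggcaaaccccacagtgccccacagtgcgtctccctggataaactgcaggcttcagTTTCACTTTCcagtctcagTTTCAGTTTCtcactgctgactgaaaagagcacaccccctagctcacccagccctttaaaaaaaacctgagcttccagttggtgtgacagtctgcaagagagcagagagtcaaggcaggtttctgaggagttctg
Isg15, chr4:156200769-156201068, minus strand: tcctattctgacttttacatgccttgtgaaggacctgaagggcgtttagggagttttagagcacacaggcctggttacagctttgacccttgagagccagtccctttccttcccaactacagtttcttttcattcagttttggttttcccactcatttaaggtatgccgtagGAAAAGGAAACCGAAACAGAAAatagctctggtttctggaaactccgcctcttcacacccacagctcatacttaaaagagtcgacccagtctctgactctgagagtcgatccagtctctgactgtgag
Gbp2, chr3:142620413-142620712, plus strand: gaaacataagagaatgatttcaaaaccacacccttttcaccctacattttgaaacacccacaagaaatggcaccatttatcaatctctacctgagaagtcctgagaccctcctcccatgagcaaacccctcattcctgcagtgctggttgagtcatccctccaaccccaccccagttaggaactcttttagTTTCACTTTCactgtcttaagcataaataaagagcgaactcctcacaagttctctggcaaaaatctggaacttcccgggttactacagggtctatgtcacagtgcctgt
Gbp3, chr3:142559794-142560093, plus strand: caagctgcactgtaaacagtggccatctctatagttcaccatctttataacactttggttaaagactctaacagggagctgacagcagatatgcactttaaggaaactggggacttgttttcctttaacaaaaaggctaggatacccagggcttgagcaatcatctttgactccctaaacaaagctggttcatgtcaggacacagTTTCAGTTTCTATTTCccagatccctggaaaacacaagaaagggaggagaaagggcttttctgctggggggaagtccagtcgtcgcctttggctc
Isg15 held 3 overlapping matches, Ifit3, Ifit1 and Gbp3 held 2 each, and Gbp2 held 1. Ifit3b, the near copy of Ifit3, also held 2. Another window of Gbp3 (chr3:142560106-142560405) held no match.

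Many members lie side by side in the genome (mm10). Ifit2, Ifit3, Ifit3b and Ifit1 sit together on chr19:34550694-34650009, Gbp7, Gbp3 and Gbp2 on chr3:142530338-142638008, and Oas2, Oas3 and Oas1a on chr5:120730333-120907525. Oasl2 and Oasl1 (chr5:114896934-114937911), Mx1 and Mx2 (chr16:97447035-97560901), Ifi207 and Ifi204 (chr1:173723427-173766919) and Ifi27 and Ifi27l2a (chr12:103434189-103443680) form pairs. Members of these families have similar sequences, so reads of Ifit3 and Ifit3b, of the Gbp genes, of the Oas genes and of the Mx genes may have been split between them, and their single values are uncertain to that degree. Usp18 was the only member whose exons overlap another gene (406 of its 1771 exonic bases, on the opposite strand), and that gene had 0 counts.

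Libraries held 16381221 to 20782195 counts. Grn measured 57.9 ± 1.35 CPM in the WT libraries, where CPM are read counts relative to the library size after TMM scaling and errors are SD over 4 libraries. In the null groups it measured 12.8 ± 1.38 CPM (KO) and 13.4 ± 1.59 CPM (MUT), with no overlap between WT and either null group. All 8 markers of cortical excitatory neurons were present, at a summed 1810 to 2430 CPM. Xist and Ddx3y went against the labelled sex of every library, all 12, so the libraries are split by sex the same way under the labels and under these transcripts. WT replicate 1 was the only WT library labelled female, and MUT replicate 3 the only MUT library labelled male. Markers of choroid plexus epithelium summed to 676 CPM in WT replicate 4, 1420 in MUT replicate 1 and 2020 in KO replicate 3, and to 9.28 to 54.6 in the other 9 libraries. Markers of striatal projection neurons summed to 556, 981 and 1920 CPM in WT replicates 2 to 4 and to 231 to 380 in the other 9.

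The members were lowly expressed in this tissue. The 31 tested had a median of 3.46 CPM, against 22.6 for all genes tested, and 20 of them averaged below 5 CPM. They also spread more between libraries: their median ratio of the highest to the lowest library was 2.47 (CPM with a prior count of 2), against 1.37 for all genes tested. The members and all genes were not matched for level, and counting error alone widens this ratio for genes with few counts. The members together took 0.0151% of counts in WT replicate 1, the lowest library, and 0.0229% in MUT replicate 3, the highest, with KO replicate 3 next at 0.0219%.

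On the scale of level per transcript length (mean CPM per kilobase of exon over 12 libraries), Ifi27, which encodes a small membrane protein, was highest at 23.8. Ifitm3, which blocks entry of viruses at membranes, followed at 8.95, then Stat2 at 8.38 and Irf9 at 6.13. The next were Lgals9 at 3.29, which encodes galectin-9, and Ifit2 at 3.26. The lowest tested member by this measure was Ifi44, at 0.178.

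Stat2 and Irf9, which belong to the signalling complex, varied less between libraries than most members. They also averaged 36.8 and 16.5 CPM, above the member median of 3.46 CPM, so counting error adds less to their spread. Stat2 measured 36.3, 39.1, 37.7 and 35.6 CPM in WT replicates 1 to 4, 34.8, 37.4, 36.7 and 40.5 in KO and 34.8, 34.8, 37.8 and 36.6 in MUT. The highest library was 1.17 times the lowest, and the 3 groups overlapped throughout. Its log2 fold change was 0.01 in KO against WT (95% interval -0.12 to 0.13) and -0.05 in MUT against WT (-0.18 to 0.09). Irf9 measured 16.3, 15.5, 13.6 and 16.3 CPM in WT, 17.1, 12.9, 17.7 and 18.9 in KO and 15.7, 15.9, 19.0 and 18.7 in MUT. MUT replicate 3 was its highest library, at 1.47 times KO replicate 2, its lowest, and the groups overlapped.

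Irf7, the factor that amplifies type I interferon production, differed far more between libraries, on only 20 to 75 counts in each. It measured 1.10, 2.67, 2.42 and 1.79 CPM in WT, 1.57, 1.57, 4.16 and 1.84 in KO and 1.69, 1.11, 3.5 and 2.31 in MUT. KO replicate 3 and MUT replicate 3 stood above all other libraries, while the rest of KO and MUT lay within the WT range. Sp100, a nuclear body protein, ranged from 2.18 CPM in KO replicate 4 to 5.54 in KO replicate 3, with MUT replicate 3 second at 4.81. The group means of Irf7 were 1.99 ± 0.702 CPM (WT), 2.29 ± 1.25 (KO) and 2.15 ± 1.02 (MUT), each over 4 libraries.

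Among the sensors of foreign nucleic acid, Ddx58 (RIG-I) ranged from 3.24 CPM in WT replicate 1 to 6.93 in MUT replicate 3, with KO replicate 3 at 6.87 and MUT replicate 1 at 6.77. Ifih1 (MDA5) had its highest level in a WT library, 8.18 CPM in WT replicate 2, against 8.09 in KO replicate 3 and 5.73 in MUT replicate 3. Zbp1, a sensor of Z-form nucleic acid, was below the filter, with 14 counts in MUT replicate 3 (95% exact Poisson interval 7.65 to 23.5) and 0 to 6 in the other 11 libraries. Ifi204 and Ifi207, of the same family of DNA-binding interferon-inducible proteins, were also below it, with 46 and 56 counts over all 12 libraries. These intervals cover counting error only.

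Among the IFIT genes, whose proteins bind foreign RNA and hold back its translation, Ifit3 and Ifit3b were higher in most null libraries than in WT. Ifit3 measured 5.0, 3.73, 4.89 and 3.88 CPM in WT, 4.46, 5.87, 8.98 and 7.43 in KO and 8.22, 7.03, 8.37 and 5.10 in MUT. Every MUT library was above every WT library, by 0.1 CPM at the closest, and KO replicate 1 lay within the WT range. Ifit3b measured 3.19, 2.73, 2.91 and 1.61 CPM in WT, 3.20, 3.35, 3.99 and 4.13 in KO and 3.19, 3.60, 5.10 and 3.83 in MUT. Neither null group overlapped WT, but WT replicate 1, KO replicate 1 and MUT replicate 1 lay within about 0.01 CPM of each other, so the separation there is smaller than counting error.

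Ifit1 measured 1.76, 1.89, 2.77 and 2.03 CPM in WT, 2.78, 2.31, 2.72 and 5.47 in KO and 3.48, 1.96, 4.30 and 3.22 in MUT. KO replicate 4 was highest, apart from the other 3 KO libraries, and the groups overlapped. Ifit2 measured 10.3, 11.2, 13.6 and 11.4 CPM in WT, 12.0, 11, 15.7 and 14.6 in KO and 14.2, 12.3, 15.2 and 13 in MUT. KO replicate 3 and MUT replicate 3 led, and KO replicate 4 and MUT replicate 1 were also above WT, with the other 4 null libraries within the WT range.

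Ifi44 had the widest ratio between libraries of all tested members, 4.93, on few counts. It measured 0.330, 0.334, 0.494 and 0.775 CPM in WT, 0.157, 0.262, 0.720 and 0.837 in KO and 0.290, 0.264, 1.2 and 0.547 in MUT. The value in MUT replicate 3 rests on 21 counts (95% exact Poisson interval 13 to 32.1), against 3 to 15 in the other libraries. Ifi27 measured 21.6, 26.9, 23.9 and 27.4 CPM in WT, 25.1, 25.4, 30.9 and 20.5 in KO and 26.4, 21.7, 27.6 and 22.8 in MUT. Its 2 highest libraries were again KO replicate 3 and MUT replicate 3, with WT replicate 4 close behind.

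Ifitm3 followed another order, with MUT replicate 1 highest. It measured 4.01, 5.17, 6.67 and 5.01 CPM in WT, 5.56, 3.88, 7.37 and 4.69 in KO and 8.94, 4.44, 8.19 and 5.65 in MUT. Bst2 (tetherin, which holds budding viruses at the cell surface) ranged from 1.56 CPM in KO replicate 4 to 3.38 in KO replicate 3, with 3.15 in MUT replicate 3. Ifi27l2a was below the filter, with 34 counts over the 12 libraries and at most 5 in any.

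**Figure D1:**
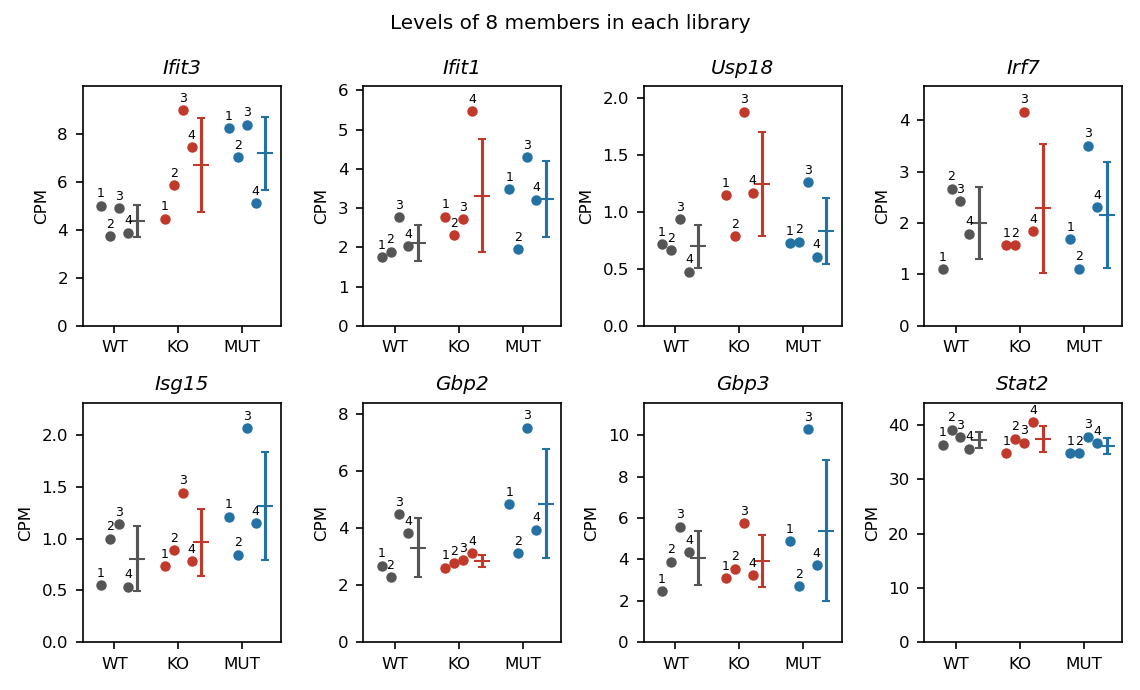
Levels of 8 members in each library (CPM, linear axes from 0). Points are libraries numbered by replicate, bars are the mean and SD of 4 libraries per group. Replicate 3 of KO or MUT is the highest point for Ifit3, Usp18, Irf7, Isg15, Gbp2 and Gbp3, KO replicate 4 is for Ifit1, and Stat2 is nearly level.

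The ISG15 system tags proteins with a ubiquitin-like modifier, and its members were led by the same libraries. Isg15, the modifier itself, measured 0.550, 1.0, 1.14 and 0.537 CPM in WT, 0.735, 0.891, 1.44 and 0.782 in KO and 1.21, 0.846, 2.06 and 1.15 in MUT. MUT replicate 3 was highest, on 36 counts (95% exact Poisson interval 25.2 to 49.8), and KO replicate 3 next, while MUT replicate 2 lay within the WT range. Usp18, which removes ISG15 and restrains signalling at the receptor, measured 0.715, 0.667, 0.938 and 0.477 CPM in WT, 1.15, 0.786, 1.88 and 1.17 in KO and 0.725, 0.740, 1.26 and 0.607 in MUT. KO replicate 3 was highest on 34 counts (23.5 to 47.5), 3 of 4 KO libraries were above all of WT, and MUT outside replicate 3 lay within the WT range. Trim25, a ligase that acts on RIG-I, ranged only from 6.65 to 9.34 CPM, and Trim30a from 1.76 to 3.99, each with MUT replicate 3 and KO replicate 3 as its 2 highest libraries.

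The 2-5A synthetases sense double-stranded RNA and make a second messenger from ATP. Oas1a measured 0.165, 0.334, 0.346 and 0.596 CPM in WT, 0.525, 0.262, 0.942 and 0.782 in KO and 0.532, 0.687, 0.974 and 0.182 in MUT. MUT replicate 3 and KO replicate 3, with 17 counts each, were highest, and MUT replicate 4 was the second lowest of all 12. Oas2 ranged from 0.607 CPM in MUT replicate 4 to 1.83 in KO replicate 3, and Oasl2 from 1.83 in KO replicate 2 to 5.27 in MUT replicate 3. Isg20, an exonuclease of single-stranded RNA, was highest in WT replicate 3 (1.14 CPM). Oas3 and Oasl1 were below the filter, with 7 and 49 counts over the 12 libraries.

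The GTPases showed the widest gap between MUT replicate 3 and the rest. Guanylate-binding proteins act on the vacuoles of intracellular pathogens and respond strongly to interferon gamma. Gbp2 measured 2.69, 2.28, 4.49 and 3.82 CPM in WT, 2.62, 2.78, 2.88 and 3.13 in KO and 4.83, 3.12, 7.51 and 3.95 in MUT. MUT replicate 3 was highest, MUT replicate 1 second and the 4 KO libraries lay within the WT range. Gbp3 measured 2.47, 3.89, 5.58 and 4.35 CPM in WT, 3.10, 3.56, 5.76 and 3.24 in KO and 4.88, 2.70, 10.3 and 3.71 in MUT. Outside MUT replicate 3 no library passed 5.76 CPM.

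Gbp7 measured 4.73, 5.06, 5.78 and 5.96 CPM in WT, 4.36, 3.82, 5.38 and 5.58 in KO and 6.24, 5.08, 8.31 and 4.80 in MUT. It had the same highest library, and its groups overlapped. Mx2, a dynamin-like antiviral GTPase, reached 1.49 CPM in MUT replicate 3 and 1.11 in KO replicate 3, against 0.472 to 1.0 elsewhere. Its neighbour Mx1 was below the filter, with 20 counts in KO replicate 4 (95% exact Poisson interval 12.2 to 30.9) and 2 to 10 in the other libraries.

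Of the other effectors, Parp14, which attaches ADP-ribose to proteins, measured 3.02, 3.78, 4.30 and 4.00 CPM in WT, 2.57, 2.88, 4.99 and 3.57 in KO and 5.85, 3.60, 7.91 and 3.77 in MUT. MUT replicates 3 and 1 were the 2 highest libraries, and 3 of 4 KO libraries were below the WT mean of 3.77 CPM. Lgals9 measured 4.01, 4.62, 5.88 and 5.55 CPM in WT, 5.25, 4.98, 5.04 and 4.86 in KO and 6.09, 4.76, 6.36 and 5.28 in MUT, so that all of KO lay inside the WT range. Rtp4, a chaperone of membrane receptors, reached 3.5 CPM in MUT replicate 3 and 3.10 in KO replicate 3, against 1.2 to 2.08 elsewhere. Rsad2 (viperin, which makes a chain-terminating nucleotide) was highest in KO replicate 4 at 2.62 CPM, and Xaf1 in KO replicate 3 at 4.71. Cxcl10, a chemokine that draws T cells, was below the filter, with 14 counts in KO replicate 4 (95% exact Poisson interval 7.65 to 23.5) and 0 to 8 in the others.

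No member passed the test in any of the 3 comparisons (edgeR quasi-likelihood F test, Benjamini-Hochberg adjusted p below 0.05 over 15298 genes). In KO against WT 0 of 31 were called, where 0.471% of all genes tested were. The log2 fold change was above 0 for 23 of 31 members (51.3% of all genes), with a median of 0.09 against 0.005 for all genes and a range of -0.42 to 0.84. At an unadjusted p below 0.05 there were 2 members, both higher in KO, where 17.9% of all genes passed that rule and 7.99% did so as higher. A single member, Ifit3b, had all KO libraries above all WT libraries, beside 4.29% of all genes, and none had them all below, beside 4.82%.

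The members with the smallest p in KO against WT were Ifit3, Usp18, Ifit3b and Ifit1. Ifit3 had a log2 fold change of 0.53 (SE 0.21, edgeR adjusted p = 0.223) and Usp18 of 0.81 (SE 0.34, adjusted p = 0.241). Ifit3b had 0.47 (SE 0.22, adjusted p = 0.291) and Ifit1 0.64 (SE 0.32, adjusted p = 0.326). In CPM, Ifit3 averaged 4.37 ± 0.665 in WT and 6.68 ± 1.95 in KO (SD, n = 4). Without KO replicate 4 the value for Ifit1 was 0.33. Across all members the median turned from 0.09 to -0.05 without KO replicate 3, with 12 of 31 above 0, and to -0.01 without WT replicate 1, with 15 of 31.

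The role groups differed in their medians. In KO against WT all 8 tested IFIT and membrane effectors were above 0 (median 0.14) and all 4 of the ISG15 system were (median 0.30), while the 4 GTPases had 2 on each side (median 0). None of these members passed the test.

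In MUT against WT, which uses the same WT libraries, 0 of 31 members were called, where 0.0196% of all genes were. The log2 fold change was above 0 for 27 of 31 members (51.1% of all genes), with a median of 0.27 against 0.004 and a range of -0.28 to 0.85. At an unadjusted p below 0.05 there were 4 members, all higher in MUT, where 11.2% of all genes passed that rule and 4.97% did so as higher. Ifit3 and Ifit3b had all MUT libraries above all WT libraries, beside 3.38% of all genes, and no member had them all below, beside 3.71%.

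The members with the smallest p in MUT against WT were Ifit3, Gbp2, Ifit3b and Isg15. Ifit3 had a log2 fold change of 0.61 (SE 0.22, edgeR adjusted p = 0.393) and Gbp2 of 0.71 (SE 0.26, adjusted p = 0.393). Ifit3b had 0.56 (SE 0.23, adjusted p = 0.409) and Isg15 0.85 (SE 0.37, adjusted p = 0.423). Without MUT replicate 3 these became 0.26 for Ifit3, 0.32 for Gbp2, 0.18 for Ifit3b and 0.38 for Isg15. The median over members became 0, with 15 of 31 above 0, beside 49.9% of all genes above 0 in the same fit. MUT replicate 3 is the only MUT library labelled male, so that fit takes its sex term from WT and KO. Without KO replicate 3 as well, 20 of 31 were above 0, beside 51.2% of all genes. With the sex term dropped too it was 21 of 31, beside 51.6%. These last 2 fits were chosen after seeing the data.

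In MUT against KO, 0 of 31 members were called, where 0.00654% of all genes were. Of the members 23 of 31 were above 0 (48.3% of all genes), with a median of 0.09 against -0.004 and a range of -0.58 to 0.82. At an unadjusted p below 0.05 there were 2, Gbp2 and Parp14, both higher in MUT, where 5.75% of all genes passed that rule and 3.54% did so as higher. No member separated the groups without overlap, beside 3.37% of all genes higher and 1.85% lower. Gbp2 had a log2 fold change of 0.82 (SE 0.25, edgeR adjusted p = 0.714), Parp14 of 0.61 (SE 0.27, adjusted p = 0.862), Gbp7 of 0.37 (SE 0.18, adjusted p = 0.877) and Usp18 of -0.58 (SE 0.33, adjusted p = 0.910). All 4 tested GTPases were above 0, with a median of 0.42.

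Single libraries also moved these values, though Gbp2, Parp14, Gbp7 and Usp18 kept their sign with any single library left out. Without MUT replicate 3, Gbp2 was at 0.52, Parp14 at 0.25, Gbp7 at 0.11 and Usp18 at -1.03, and the median over members at -0.08. Without KO replicate 3 that median was 0.36, and without KO replicate 2 it was -0.02.

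The 4 MUT libraries differ in labelled age and so came from 4 animals. For libraries alike in labelled age and sex (WT replicates 2 to 4, and KO replicates 3 and 4) the labels do not say whether the animals were separate, so part of the spread that the p-values measure may be technical. DESeq2 and limma-voom also called 0 members in each comparison. Of all genes, DESeq2 called 4.23% in KO against WT, 0.32% in MUT against WT and 0.0981% in MUT against KO. For limma-voom these shares were 0.34%, 0.0131% and 0.00654%. The 95% interval of a member's log2 fold change had a median half-width of 0.58 in KO against WT and 0.60 in MUT against WT, before adjustment for multiple tests.

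**Figure D2:**
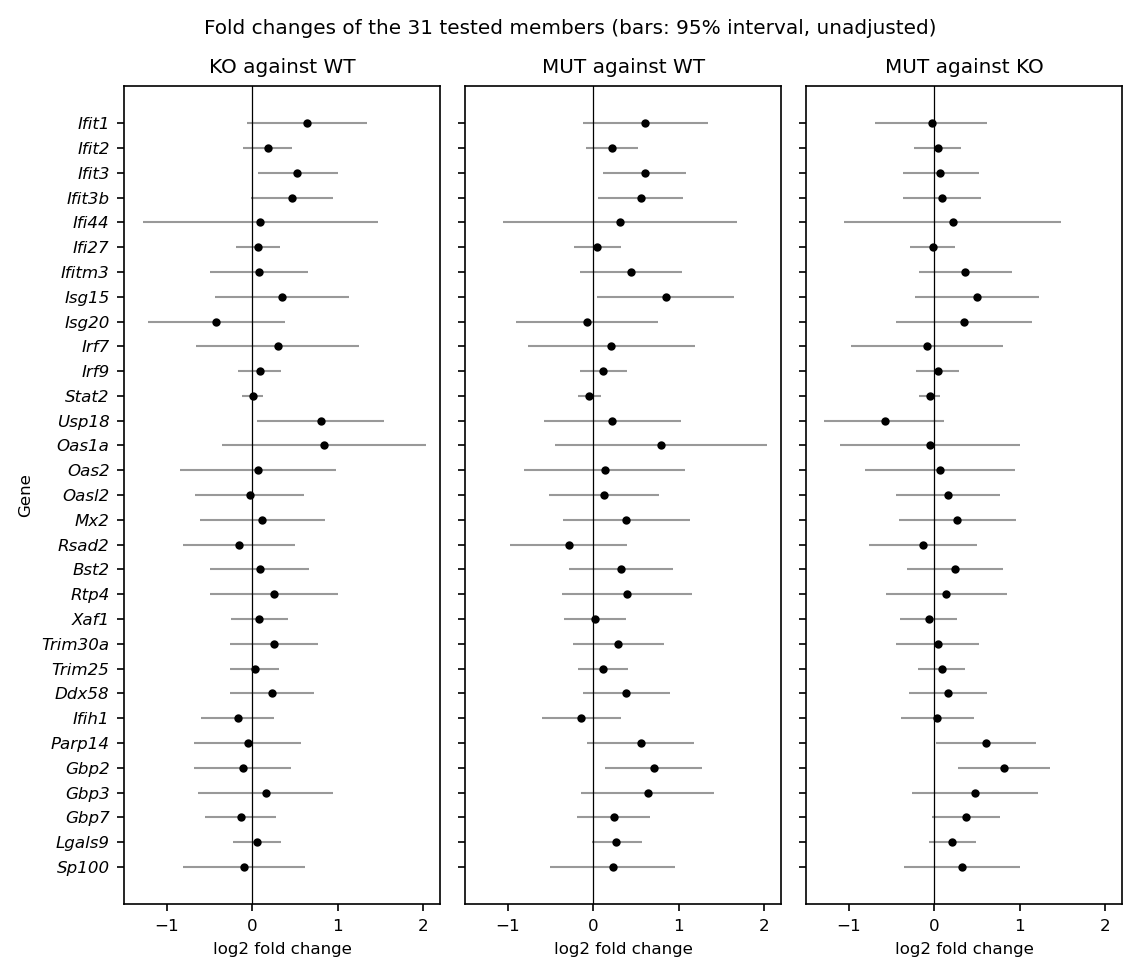
Log2 fold changes of the 31 tested members in the 3 comparisons (points, edgeR, with labelled sex as a term) with their unadjusted 95% intervals (bars). KO and MUT are compared with the same 4 WT libraries. Intervals are narrow for Stat2 and wide for Ifi44 and Oas1a, and no member passed the adjusted threshold.

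The higher levels were carried by single libraries more than by groups. MUT replicate 3 was the highest of the 12 libraries for 15 of 31 members, 48.4% against 7.07% of all genes tested. KO replicate 3 was the highest for 10, 32.3% against 10.9%. Together they led 25 of the 31, against 18% of all genes. KO replicate 4 led Ifit1, Rsad2 and Stat2, MUT replicate 1 led Ifitm3, WT replicate 2 led Ifih1 and WT replicate 3 led Isg20.

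For 16 of 31 members MUT replicate 3 and KO replicate 3 were the 2 highest libraries, against 1.46% of all genes. These were Bst2, Ddx58, Gbp3, Ifi27, Ifit2, Ifit3, Irf7, Isg15, Mx2, Oas1a, Oas2, Rtp4, Sp100, Trim25, Trim30a and Usp18, which come from every role group. Within its own group MUT replicate 3 was the highest MUT library for 26 members (25% of all genes) and KO replicate 3 the highest KO library for 22 (30.6% of all genes). In WT the highest library was replicate 3 for 15 members (27.1% of all genes).

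**Figure D3:**
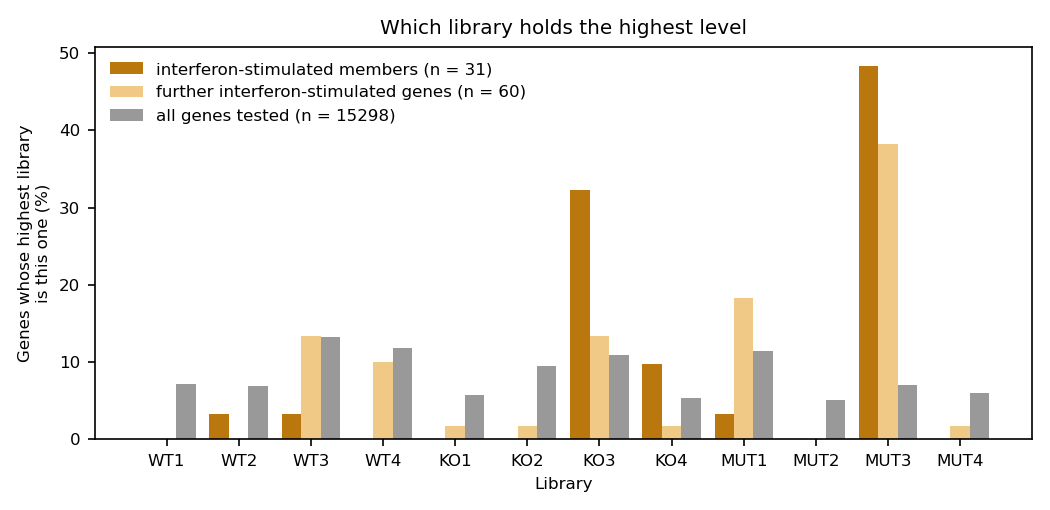
Share of genes (%) whose highest level of the 12 libraries falls in each library, for the 31 tested members, 60 further interferon-stimulated genes and all 15298 genes tested. MUT replicate 3 holds 48.4% of the members and 38.3% of the further genes, against 7.07% of all genes.

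A member level was computed per library as the mean over the 31 members of log2 CPM minus each gene's own mean over 12 libraries. It was -0.32, -0.16, 0.09 and -0.05 in WT replicates 1 to 4, -0.20, -0.31, 0.41 and 0.04 in KO and 0.16, -0.15, 0.54 and -0.05 in MUT. The group means of -0.11 ± 0.17, -0.02 ± 0.32 and 0.13 ± 0.31 (SD, n = 4) lie closer together than the libraries within KO or MUT. MUT replicate 3 was above the members' own means for 28 of 31, KO replicate 3 for 27, and WT replicate 1 for 1. In bulk RNA more responding cells and more transcript per cell cannot be told apart.

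By labelled sex, the male libraries held levels of -0.16, 0.09 and -0.05 in WT, -0.20 and -0.31 in KO and 0.54 in MUT. The female libraries held -0.32 in WT, 0.41 and 0.04 in KO and 0.16, -0.15 and -0.05 in MUT. With 1 WT library labelled female and 1 MUT library labelled male, MUT and WT cannot be compared within a labelled sex with more than 1 library on each side. In KO against WT both KO levels were below all 3 WT levels among libraries labelled male, and both were above the WT library among those labelled female. That difference between the labelled sexes was not tested. The WT libraries labelled male are all of 375 days and the WT library labelled female is of 287 days, so it cannot be told apart from age. With age in days added to the model, the median log2 fold change was 0.53 in KO against WT and 0.56 in MUT against WT. In each, 30 of 31 members were above 0 and 0 were called, where 0.0131% and 0.0196% of all genes were called. Since 3 of 4 WT animals and no others were 375 days old, age and genotype are largely confounded in the comparisons with WT.

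The 2 high libraries were not alike across the roles. GTPases stood at 0.95 in MUT replicate 3 and 0.16 in KO replicate 3 on the same centred scale. The ISG15 system stood at 0.54 and 0.60, the 2-5A group at 0.59 and 0.59, the transcription factors at 0.39 and 0.46, and the IFIT and membrane effectors at 0.55 and 0.38. The 2 tested sensors were at 0.16 and 0.40, and the other effectors at 0.44 and 0.33. Of the 25 members with both a promoter window and a test, the 16 with response element letters had a median of 0.53 in MUT replicate 3 and 0.39 in KO replicate 3, and the 9 without them 0.27 and 0.33.

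**Figure D4:**
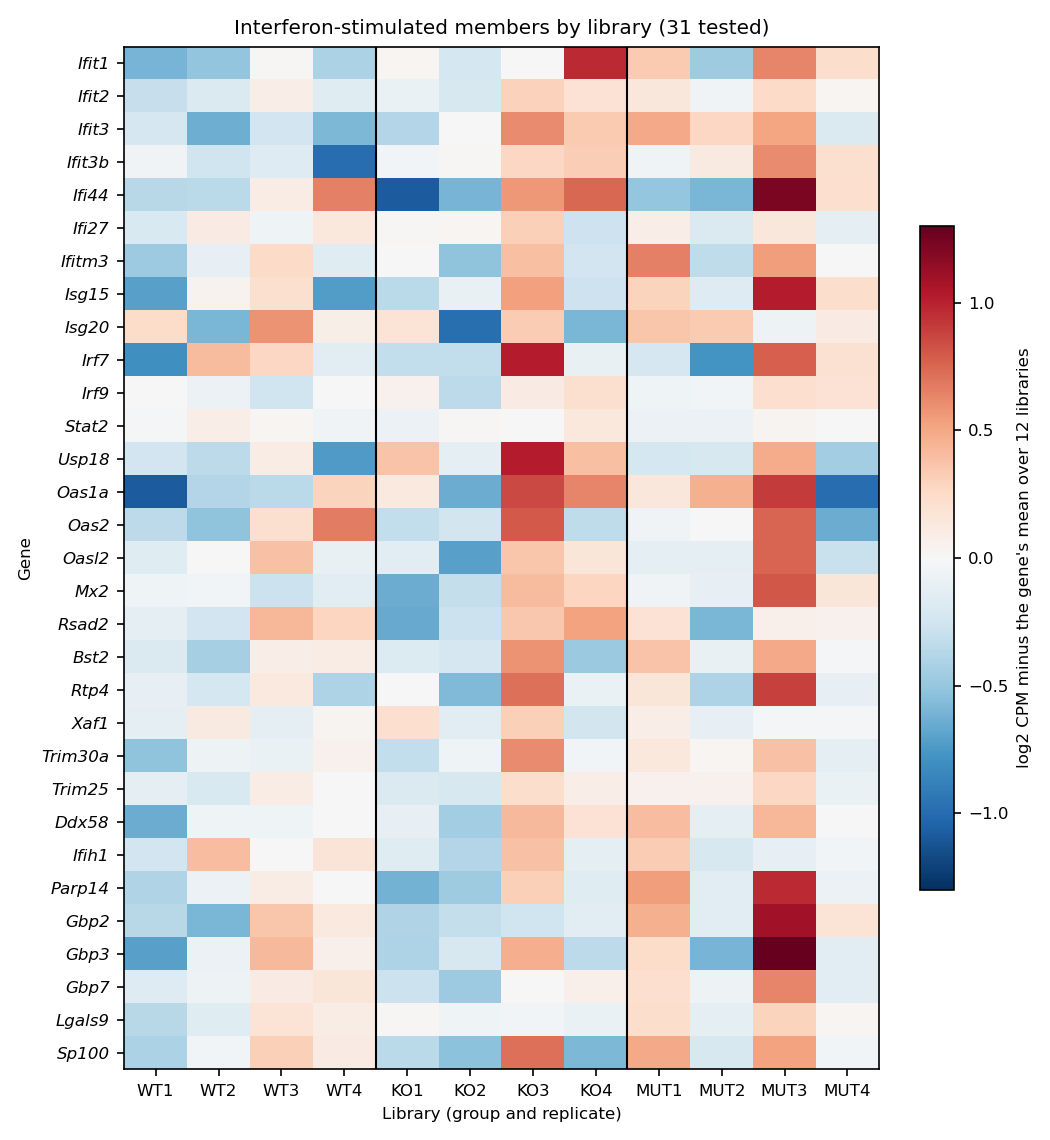
Level of each of the 31 tested members in each library (log2 CPM minus the gene's mean over the 12 libraries, colour scale). Groups are divided by vertical lines and genes follow the order of the member list. The columns of KO replicate 3 and MUT replicate 3 are above the mean for 27 and 28 members, and that of WT replicate 1 for 1.

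Members varied together across libraries, as a description of 12 points that share library depth and group. Over the 465 pairs of tested members the median Pearson correlation of log2 CPM was 0.49 and 94% were above 0, against a median of 0 and 49.9% over all pairs of the 15298 tested genes. With group means removed the median was 0.53. Without MUT replicate 3 and KO replicate 3, over 10 libraries, it was 0.30, with 75.5% above 0.

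The members that followed the mean of the others most closely were Ifit2 (r = 0.90), Trim25 (0.89), Parp14 (0.89), Rtp4 (0.88) and Ddx58 (0.88), over 12 libraries. Without the 2 high libraries Ifit2 and Ddx58 were each at 0.87 and Rtp4 at 0.59. Stat2 (0.14), Isg20 (0.24) and Xaf1 (0.29) followed least. Usp18 went from 0.56 to 0 and Ifit3b from 0.40 to -0.10 without those libraries.

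Outside the list, the genes nearest to the member level over the 12 libraries were Polm (r = 0.92), Tnfsf10 (0.91) and H2-K1 (0.91). Tnfsf10, which encodes the death ligand TRAIL, measured 5.16 CPM in MUT replicate 3, 3.71 in KO replicate 3 and 1.32 in WT replicate 1. H2-K1, a heavy chain of major histocompatibility complex class I, measured 36.1, 31.2 and 19.6 CPM in the same libraries. Polm, a DNA polymerase, moved within 6.55 to 8.09 CPM.

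The wider pathway was read from 151 listed genes, of which 147 were in the table and 109 were tested. None of the 109 passed the test in any of the 3 comparisons by edgeR or limma-voom. By DESeq2, Jak1 and Herc6 passed in KO against WT and none in the others. At an unadjusted p below 0.05, edgeR gave 3 higher and 6 lower in KO against WT, 9 and 4 in MUT against WT, and 7 and 0 in MUT against KO. Of all genes tested, 17.9%, 11.2% and 5.75% were below that p. The pathway counts over both directions (9, 13 and 7 of 109) were thus under or near this background. As higher, 7.99%, 4.97% and 3.54% of all genes were below it. The pathway counts of higher genes (3, 9 and 7 of 109) were under that share in KO against WT. They were above it in MUT against WT and in MUT against KO, which was not tested. The ligands themselves were near absent: the 21 interferon genes in the table held 1 count in all 12 libraries together. Interferon receptors (5 tested) had median log2 fold changes of -0.03 in KO against WT, 0.01 in MUT against WT and 0.03 in MUT against KO.

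Jak1, the kinase bound to the receptor, measured 215, 232, 243 and 228 CPM in WT, 206, 199, 191 and 200 in KO and 199, 212, 212 and 206 in MUT. All KO libraries were below all WT libraries, beside 4.82% of all genes, with a log2 fold change of -0.19 (SE 0.04, edgeR adjusted p = 0.0627). All MUT libraries were too, beside 3.71% of all genes, with a log2 fold change of -0.11 (edgeR adjusted p = 0.4). In KO against WT, DESeq2 gave an adjusted p of 0.00132 for Jak1, and edgeR 0.0391 without the sex term and 0.0156 without WT replicate 1. Those 3 fits called 4.23%, 2.05% and 10.6% of all genes. In the other 23 of 26 alternatives Jak1 did not pass. Its log2 fold change was -0.14 with sex and age as terms. Rnaseh2a, a subunit of the nuclease that removes ribonucleotides from DNA, was at 0.25 in KO against WT (SE 0.07, adjusted p = 0.115).

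Irf8 is a factor of microglia and other myeloid cells. It separated both null groups from WT, beside 4.29% of all genes higher in KO and 3.38% in MUT. It measured 5.33, 5.56, 5.18 and 5.61 CPM in WT, 6.4, 7.23, 6.10 and 6.64 in KO and 7.20, 7.14, 8.02 and 6.92 in MUT. Against WT its log2 fold change in KO was 0.31 (SE 0.09, edgeR adjusted p = 0.114). For MUT the fit gave 0.48 (SE 0.10, edgeR adjusted p = 0.224). Without WT replicate 1 it was 0.53 in MUT with an edgeR adjusted p of 0.0217, where 6.89% of all genes were called. The WT libraries in that fit are all of 375 days. Irf8 did not pass in MUT against WT in the other 25 alternatives, nor in KO against WT in any of the 26.

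The regulators gave medians of 0 in KO against WT, 0 in MUT against WT and 0.02 in MUT against KO (12 tested), the interferon regulatory factors 0.05, 0.11 and 0.01 (9 tested), and the sensors and nucleases 0.01, -0.01 and 0 (23 tested). Ptpn2, a phosphatase that acts on Jak1, was at 0.19 in MUT against KO (SE 0.07, edgeR adjusted p = 0.838).

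The 60 tested further interferon-stimulated genes had medians of 0.05 in KO against WT, 0.21 in MUT against WT and 0.17 in MUT against KO, with 35, 49 and 44 above 0. Of all genes tested 51.3%, 51.1% and 48.3% were above 0, with medians of 0.005, 0.004 and -0.004. Herc6, which attaches ISG15 in mice, was at -0.42 in MUT against WT (SE 0.13, edgeR adjusted p = 0.372), and Ifitm1 at 1.33 (SE 0.43, adjusted p = 0.372). Ifitm1 was at 1.22 in KO against WT (edgeR adjusted p = 0.152). All its KO libraries (1.10 to 2.11 CPM) and all its MUT libraries (0.911 to 2.90) were above all WT libraries (0.417 to 0.825). Such a separation held for 4.29% of all genes in KO and 3.38% in MUT. Slfn5 was at 0.25 in MUT against KO (SE 0.11, adjusted p = 0.862).

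As with the members, MUT replicate 3 was the highest library for 23 of these 60 (38.3%, against 7.07% of all genes). KO replicate 3 led 8 (13.3% against 10.9%) and MUT replicate 1 led 11 (18.3% against 11.4%). Gbp4, another guanylate-binding protein, measured 1.70, 2.56, 3.46 and 1.97 CPM in WT, 1.73, 1.62, 2.55 and 1.23 in KO and 2.42, 1.74, 13.8 and 1.15 in MUT. Its log2 fold change in MUT against KO was 1.29 (SE 0.53, edgeR adjusted p = 0.851), and 0.09 without MUT replicate 3.

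Gbp5 and Iigp1 were picked out after their values were seen. Gbp5 stood at 8.54 CPM in MUT replicate 3 against 1.48 to 3.49 in the other libraries. Iigp1, a GTPase that coats parasite vacuoles, stood at 4.13 against 0.635 to 1.67.

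Markers of cell types that could carry this response were read beside it. Microglial markers (10 of 10 tested) summed to 371 CPM in MUT replicate 3 and 353 in KO replicate 3, against 321 to 370 in WT and 338 to 371 in the null groups. Endothelial markers (10 of 10) summed to 268 and 309 CPM in these libraries, against 237 to 313 in WT and 241 to 348 in the null groups. Astrocyte markers (8 of 8) summed to 4350 and 4020 CPM, against 4030 to 4330 in WT.

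Within the astrocyte list Gfap, an intermediate filament protein of astrocytes, differed between groups where the sum did not show it, and it was picked out after its values were seen. It measured 154, 81.7, 74.7 and 110 CPM in WT, 263, 193, 261 and 205 in KO and 255, 249, 303 and 216 in MUT. Every null library was above every WT library, beside 4.29% of all genes in KO and 3.38% in MUT. Gfap was highest of the 12 libraries in MUT replicate 3. Its log2 fold change was 1.11 in KO against WT (edgeR adjusted p = 0.0428) and 1.23 in MUT against WT (adjusted p = 0.154). The call in KO against WT held under 10 of 26 alternatives. It was lost when any 1 of WT replicates 2 and 4, MUT replicates 2 to 4 and KO replicates 1 to 3 was left out, and with age as a further term (log2 fold change 0.68, adjusted p = 0.548). Its part in the member levels was not tested.

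Lymphocyte markers passed the filter for 1 of 10, Cd4, and their sum was 1.66 CPM in MUT replicate 3 and 3.16 in KO replicate 3, against 1.48 to 23 in WT. Most of the WT sum was Cd4, at 0.770, 3.62, 9.73 and 22.1 CPM in WT replicates 1 to 4, the order of their striatal marker sums, while Cd3e, Cd3g and Ms4a1 were at 0 in every WT library. The sum therefore does not read lymphocytes in WT. Markers of inflammatory myeloid and plasmacytoid dendritic cells passed for 1 of 8, Flt3, with 2 at 0 counts in all libraries. They summed to 12.5 and 16.7 CPM against 11.3 to 13.8 in WT, and were highest in MUT replicate 1 (18.1). Most of that sum was Flt3, at 11.9 CPM in MUT replicate 3, 16 in KO replicate 3 and 17 in MUT replicate 1. The sum therefore reads Flt3 and not these cells as a set. Border-associated macrophage markers (6 of 8 tested) summed to 9.05 to 16.6 CPM in MUT, 5.36 to 7.37 in KO and 6.73 to 10.6 in WT.

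Choroid plexus and meningeal fibroblast markers were above the WT range in KO replicate 3 and MUT replicate 1, but not in MUT replicate 3. Choroid plexus markers (8 of 10 tested) summed to 2020, 1420 and 20.2 CPM in those libraries, against 9.28 to 676 in WT. Meningeal fibroblast markers (8 of 8) summed to 171, 244 and 85 CPM, against 69.6 to 112 in WT, and to 131 in KO replicate 4. In KO replicate 4 Col1a1 (36.4 CPM), Col1a2 (24.8) and Col3a1 (22.3) were high, while Igf2 (25.6) was at its lowest of the 12 libraries. In KO replicate 3 Igf2 alone gave 98.5 CPM. In KO these sums thus rest largely on a few of the 8 genes. Pericyte and smooth muscle markers (7 of 8) summed to 133 CPM in KO replicate 3, 193 in MUT replicate 1 and 110 in MUT replicate 3. The WT range was 105 to 141, so KO replicate 3 lay within it. Blood cell markers (4 of 5) summed to 112, 111 and 52 CPM, against 39 to 107. Their part in the member levels was not tested. Without the 3 libraries high in choroid plexus markers, the member median was -0.06 in KO against WT, 0.37 in MUT against WT and 0.33 in MUT against KO. In each comparison 0 members were called, where at most 0.0197% of all genes were.

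**Figure D5:**
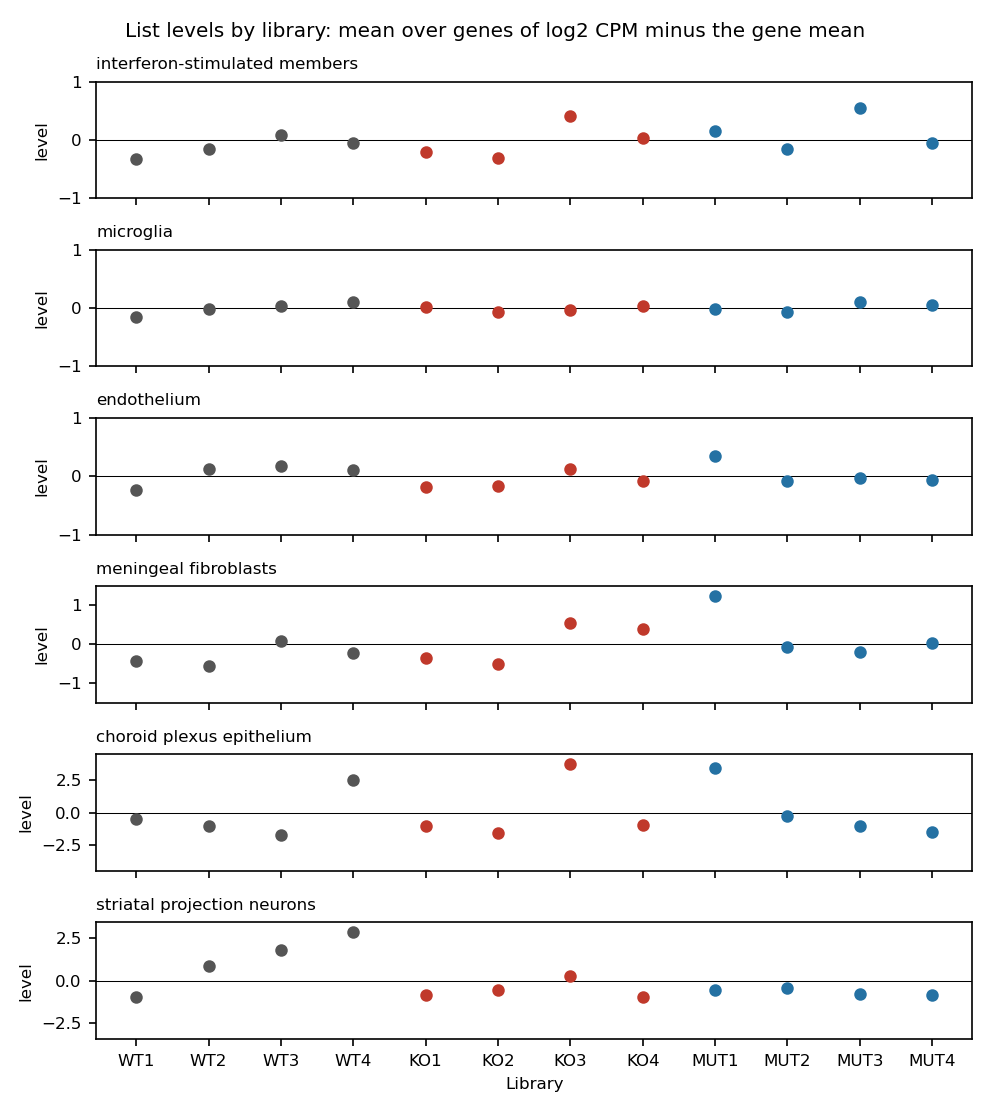
Level of the members and of 5 marker lists in each library (mean over genes of log2 CPM minus the gene's mean, separate vertical scales). The member level is 0.41 in KO replicate 3 and 0.54 in MUT replicate 3. Choroid plexus markers are high in WT replicate 4, KO replicate 3 and MUT replicate 1, and microglial markers stay between -0.15 and 0.10.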

How the data were processed

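RNA of mouse cortex was measured in 12 directional libraries. The authors deposited 1 table of raw read counts per gene with exon coordinates, per the file headers. Build mm10, DESeq2 1.34.0 and R 4.1.2 are named in the submitters' processing notes. Which aligner and counter were used, and with which strand setting, is not given in the sources used here. Reads of overlapping genes on opposite strands therefore cannot be told apart. Genes without a symbol (1049) stayed in the tests.

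Groups came from the labels. No 2 libraries were alike within sampling noise (over 66 pairs the chi-square per degree of freedom was at least 3.46). Genes were kept by edgeR's filterByExpr (minimum count 10, minimum total 15, 4 libraries), which puts the floor near 0.546 CPM. After TMM scaling, edgeR 4.0.16 (R 4.3.3) fitted a quasi-likelihood model of all 12 libraries with group and labelled sex (8 residual degrees of freedom, common biological coefficient of variation 0.101), with Benjamini-Hochberg adjustment over all genes tested and a threshold of 0.05. CPM use scaled library sizes, and log2 CPM a prior count of 2.

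The members and lists were chosen with earlier results of these data known. Values in every library are given for members past the threshold, the 4 with the smallest p per comparison, the 6 with the largest ratio of highest to lowest library and the 6 with the highest CPM per kilobase. Of the wider pathway the 3 genes with the smallest p per comparison are named. Alternatives were other scaling, filters, DESeq2 1.42.0, limma-voom (limma 3.58.1), other terms, and libraries left out. 2 alternatives, without MUT replicate 3 and KO replicate 3, with and without the sex term, were chosen after seeing the data.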

Additional observations from a re-analysis of the deposited data

Results flagged for a closer look

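The check covered 84 groups of 4 libraries, each a named gene or the mean member level in WT, KO or MUT. In each, the gap between the most distant library and its nearest neighbour was set against the range of the group. This ratio passed Dixon's 95% critical value in 4 groups. Chance gives about 1 in 20 groups, so 4 of 84 is near that share. The named genes were picked from these same data, so that share is only a guide. Ifit1 measured 5.47 CPM in KO replicate 4, where the other KO libraries held 2.31 to 2.78 (gap over range 0.849). Irf7 measured 4.16 CPM in KO replicate 3, where the other KO libraries held 1.57 to 1.84 (0.895). Gbp4 measured 13.8 CPM in MUT replicate 3, where the other MUT libraries held 1.15 to 2.42 (0.900). Herc6 measured 30.4 CPM in WT replicate 3, where the other WT libraries held 24.3 to 25.2 (0.859). The mean member level of KO minus that of WT, in log2 CPM relative to the mean of each gene, had opposite signs in the 2 labelled sexes: -0.21 among libraries labelled male (2 KO, 3 WT) and 0.54 among those labelled female (2 KO, 1 WT), with every KO library on the same side of every WT library within a labelled sex. This difference was not tested. The WT libraries labelled male are all of 375 days and the WT library labelled female is of 287 days. Labelled sex and age therefore cannot be told apart in it.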

How the results depend on the processing

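The count of members past the threshold was 0 in all 3 comparisons under all 26 alternatives, leaving out each library in turn included. Of all genes, these fits called 0.00646% to 10.6% in KO against WT. The shares were 0.0129% to 6.89% in MUT against WT and 0.00465% to 0.213% in MUT against KO. Where almost no gene was called, a count of 0 says little about the members. The 24 fold changes of named genes kept their sign in each of the 26 alternatives. The member median was 0.53 in KO against WT and 0.56 in MUT against WT with sex and age as terms, and 0.38 in KO against WT with animals under 310 days, where WT keeps 1 library whose spread is taken from the other groups. The cause was not tested. Leaving out each library in turn gave medians of -0.05 to 0.26 in KO against WT, 0 to 0.40 in MUT against WT and -0.08 to 0.36 in MUT against KO. Without both MUT replicate 3 and KO replicate 3, chosen after seeing the data, the medians were -0.08, 0.14 and 0.18, with 12, 20 and 20 of 31 members above 0, and without the sex term as well -0.07, 0.10 and 0.11.

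The count of wider pathway genes past the threshold in KO against WT was 2 with DESeq2 (Jak1 and Herc6) and 1 without the sex term (Jak1), where DESeq2 called 4.23% and the fit without sex 2.05% of all genes. Leaving out each library in turn gave 0 to 7 in KO against WT, 0 to 4 in MUT against WT and 0 in MUT against KO. Both maxima came without WT replicate 1, where 10.6% and 6.89% of all genes were called: Cmpk2, Dtx3l, Tdrd7, Jak1, Samd9l, Herc6 and Pml, all lower in KO, and Traf3 and Irf8, higher in MUT, with Samd9l and Herc6, lower in MUT. The remaining WT libraries are all of 375 days and are also the 3 with the highest striatal marker sums. The cause was not tested.

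Replicate numbers did not pair the samples: over 12 same-numbered pairs the correlation of deviations was -0.38 to 0.29, 1 was above 0.1, and 2 samples correlated best with their own number. With the replicate block the count of members was 0 in each comparison, where at most 0.0131% of all genes were called. The medians were 0.05, 0.22 and 0.09. Most members have few counts, so for them counting error adds to the spread between libraries, and 8 of 39 could not be tested.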
